A study of Mus musculus with 6 samples.

Results

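The genes described here encode 10 transcription factors of the immediate-early response: the FOS family (Fos, Fosb, Fosl1 and Fosl2), the JUN family (Jun, Junb and Jund), Atf3, and the zinc finger factors Egr1 and Egr2. They were chosen by name, and all 10 were found among the 52459 genes listed. RNA had been sequenced from macrophages grown with GM-CSF out of the bone marrow of C57BL/6 mice and treated overnight from day 7. The RIP1i group, in which RIP1i was added, and the DMSO group, in which the solvent was added, held 3 libraries each, numbered 1 to 3 in both. RIP1 kinase, encoded by Ripk1, relays TNF receptor signals to NF-kB, to MAP kinases and to cell death, and the study asked how RIP1i alters the macrophage transcriptome. The labels give neither the RIP1i compound nor its dose, no genetic change in either group, and no statement that the replicates were separate cultures or animals, so the p-values rest on a spread among libraries that may be technical.

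AP-1 is a dimer of basic leucine zipper proteins. JUN proteins pair with each other or with FOS proteins, which cannot pair among themselves, and the dimers bind the AP-1 site in DNA. ATF3 is a related zipper protein, induced by stress and known in macrophages for restraining inflammatory cytokine genes. EGR1 and EGR2 bind GC-rich sites through zinc fingers. Fos, Egr1 and their relatives are called immediate-early because their transcription starts within minutes of a signal through MAP kinases and serum response factor, without new protein synthesis, and usually subsides quickly. JUND, in contrast, is known for steady expression. An overnight treatment therefore reads their standing level and not the first burst.

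The libraries held between 40264902 and 44862310 counts. All 8 macrophage markers checked (Adgre1, Csf1r, Cd68, Itgam, Lyz2, Mertk, Fcgr1 and Cd14) were present, with summed levels of 44077 to 53630 CPM in RIP1i and 50777 to 58690 CPM in DMSO. CPM are counts scaled by library size with TMM factors. Lyz2 made up most of the macrophage sum, from 39866 CPM in RIP1i replicate 2 to 54100 CPM in DMSO replicate 2. The other macrophage markers did not all follow it, since RIP1i replicate 2 was the highest for Adgre1 and the lowest for Csf1r, Fcgr1 and Cd14. Markers of other cells varied among libraries within both groups. The 8 stromal cell markers, which include Col1a1, Col1a2 and Dcn, summed to 256, 89.2 and 202 CPM in RIP1i replicates 1 to 3 and to 218, 379 and 97.4 CPM in DMSO replicates 1 to 3. The 8 neutrophil markers, led by S100a9 and S100a8, summed to 464, 656 and 222 CPM in RIP1i and to 457, 226 and 624 CPM in DMSO. RIP1i replicate 2 and DMSO replicate 3 were thus the libraries with the least stromal and the most neutrophil RNA. They also lay together at 1 end of the first principal component, which held 50.9% of the variance over all tested genes, at 32.7 and 19.5, with DMSO replicate 2 at the other end at -26.7. On the second component, which held 14.9%, the groups did not overlap. RIP1i lay at -20.8 to -3.11 and DMSO at 6.67 to 11.1, and this separation was not tested. The 5 dendritic cell markers summed to 27.5 to 47.3 CPM in RIP1i and 26.2 to 40.4 CPM in DMSO, the 5 mast cell and basophil markers to 165 to 199 CPM in RIP1i and 165 to 198 CPM in DMSO, and the B cell and T cell markers to under 1 CPM in every library. Kit, at 157 to 186 CPM, made up most of the mast cell and basophil sum. The other markers of that list varied more, such as Cpa3 from 3.09 CPM in DMSO replicate 2 to 11.4 CPM in RIP1i replicate 2. The 8 mitochondrially encoded transcripts checked took 0.413% to 0.521% of the counts in RIP1i and 0.405% to 0.603% in DMSO.

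The DNA just before 3 of these genes shows the kinds of element through which such factors and their regulators are known to act. RefSeq promoter windows (GRCm38.p6) were at hand for 8 of the 10 genes, Fos, Fosb, Fosl2, Jun, Junb, Jund, Atf3 and Egr2. The 250 bases before the start site are shown for 1 gene each of the FOS, JUN and EGR families, with matches in capitals. For Fos (chr12:85473640-85473889, plus strand), the capitals mark 2 CRE half-sites, TGACG, and a TATA box, TATAAA. For Jun (chr4:95052223-95052472, minus strand), they mark a CRE-like element, TGACNTCA. For Egr2 (chr10:67537619-67537868, plus strand, the window of 1 of its 5 listed start sites), they mark a CRE half-site on each strand and, between them, a CArG box, the element that serum response factor binds.
Fos: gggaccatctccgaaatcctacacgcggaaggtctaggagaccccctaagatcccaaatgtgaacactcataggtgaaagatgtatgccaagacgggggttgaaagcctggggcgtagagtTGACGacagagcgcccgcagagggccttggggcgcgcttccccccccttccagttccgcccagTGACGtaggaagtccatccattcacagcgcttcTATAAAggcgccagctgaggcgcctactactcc
Jun: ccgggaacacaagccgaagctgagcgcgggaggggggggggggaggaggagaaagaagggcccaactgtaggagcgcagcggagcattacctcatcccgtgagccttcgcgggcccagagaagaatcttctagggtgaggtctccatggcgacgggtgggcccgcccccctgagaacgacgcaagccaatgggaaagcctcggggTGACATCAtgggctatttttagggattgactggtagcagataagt
Egr2: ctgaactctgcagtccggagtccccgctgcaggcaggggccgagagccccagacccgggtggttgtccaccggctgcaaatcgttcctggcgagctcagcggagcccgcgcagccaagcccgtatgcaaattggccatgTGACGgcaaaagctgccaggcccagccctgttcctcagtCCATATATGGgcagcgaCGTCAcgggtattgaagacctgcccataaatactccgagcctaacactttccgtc

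Both strands were searched for each motif except the TATA box, which was searched on the strand of the gene, and a gene counted once however many windows it had. The half-site TGACG, which is also part of the full CRE, was present before 5 of the 8 genes (Fos, Fosb, Junb, Atf3 and Egr2), and before 19.8% of all 27025 genes with a window. The CArG box was present before Egr2, and before 1.62% of all genes. The CRE-like TGACNTCA was present before Jun, and before 8.55% of all genes. The EGR site GCGNGGGCG was present before Fosb and Fosl2, and before 5.33% of all genes. TATAAA was present before Fos, and before 8.94% of all genes. Neither the AP-1 site TGANTCA, with 7.82% of all genes, nor the full CRE TGACGTCA, with 1.77%, was present in these windows of the 8 genes. The Jund window ends before the gene start that GENCODE vM21 gives, and the Fosl2 window lies wholly within exon sequence annotated there, so for these 2 genes the windows may not be the promoter in use. The Atf3 window and the Egr2 window shown lie inside the annotated genes, past the gene start. The Egr2 window at the gene start (chr10:67535249-67535498) held 0 matches. Which start sites are in use was not tested. The matches are letters in a window and were not tested as binding sites.

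The 10 genes stood at very different levels, which were compared per length as FPKM, the deposited unit of fragments scaled by gene length and library size. Atf3 was the highest, at 119 ± 9.33 FPKM in RIP1i and 111 ± 3.67 FPKM in DMSO (SD, n = 3 each), and ranked 363 of all listed genes by mean FPKM. Jund followed at 111 ± 11.8 FPKM in RIP1i and 106 ± 9.28 FPKM in DMSO. Atf3 was above Jund in 4 of 6 libraries and below it in RIP1i replicate 2 and DMSO replicate 3, so the order of the 2 highest genes was not separated from the spread. Junb stood at 51.7 ± 1.59 FPKM in RIP1i and 49.0 ± 3.18 FPKM in DMSO. Jun, at 34.2 ± 1.05 and 32.9 ± 1.46 FPKM in RIP1i and DMSO, and Egr2, at 32.6 ± 2.45 and 31.3 ± 1.14 FPKM in RIP1i and DMSO, overlapped, with Jun higher in 4 of 6 libraries.

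Among the other genes, Fosl2 stood at 15.1 ± 0.912 FPKM in RIP1i and 15.7 ± 0.678 FPKM in DMSO, and Fos at 5.86 ± 0.261 FPKM in RIP1i and 6.60 ± 0.155 FPKM in DMSO. The remaining 3 were barely expressed. Fosl1 ranged from 0.13 to 0.39 FPKM in RIP1i and from 0.10 to 0.47 FPKM in DMSO, Egr1 from 0.11 to 0.16 in RIP1i and from 0.11 to 0.17 in DMSO, and Fosb from 0.03 to 0.07 in RIP1i and from 0.03 to 0.06 in DMSO. Apart from Atf3 with Jund, Jun with Egr2, and Fosl1 with Egr1, the libraries of neighbours in this order did not overlap in FPKM.

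**Figure D1:**
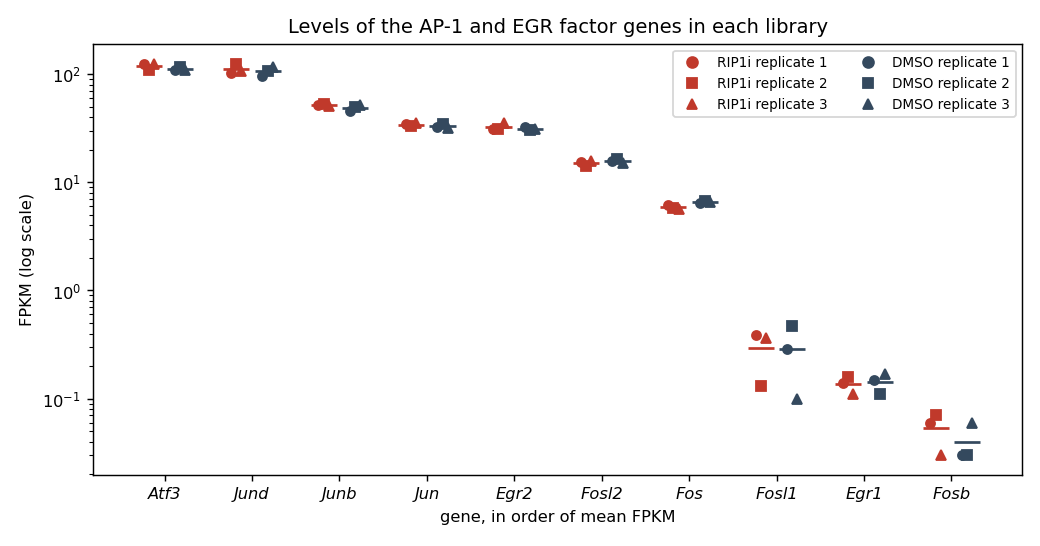
FPKM (log axis) of the 10 genes in each of 6 libraries, with RIP1i in red left of DMSO in dark blue, symbols for the replicate number and lines for group means. The 7 genes from Atf3 to Fos lie between 5.67 and 125 FPKM, and Fosl1, Egr1 and Fosb lie under 0.5 FPKM in every library.

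Within each family 1 gene carried most of the RNA in both groups. Jund made up 54.2%, 59.0% and 55.8% of the summed JUN family FPKM in RIP1i replicates 1 to 3 and 55.4%, 55.8% and 58.0% in DMSO replicates 1 to 3. Fosl2, which encodes FRA2, made up 69.8%, 70.3% and 72.4% of the summed FOS family FPKM in RIP1i and 69.9%, 69.1% and 69.1% in DMSO. Fos made up 28.1%, 28.7% and 25.8% of it in RIP1i and 28.7%, 28.8% and 30.2% in DMSO. The shares of the groups overlapped for all 3 genes.

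Egr2, known in macrophages as a factor of the response to IL-4 and of lineage specification, made up 99.5% to 99.7% of the summed FPKM of Egr1 and Egr2 in RIP1i and 99.5% to 99.6% in DMSO. The JUN family summed to 188, 211 and 193 FPKM in RIP1i and 175, 190 and 199 FPKM in DMSO. The FOS family summed to 21.9, 20.1 and 22.0 FPKM in RIP1i and 22.6, 23.6 and 21.7 FPKM in DMSO. JUN family RNA was therefore 8.56, 10.5 and 8.79 times FOS family RNA in RIP1i and 7.73, 8.06 and 9.19 times in DMSO, with overlap between the groups.

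RIP1i and DMSO did not differ past the threshold for any of the 10 genes. All 10 passed the filter on low counts, and the test was edgeR's quasi-likelihood test over all 14857 tested genes with Benjamini-Hochberg adjustment, at an adjusted p under 0.05. It called 0 of the 10 genes and 0% of all tested genes. At an unadjusted p under 0.05 there was 1 of the 10 genes, beside 6.21% of all tested genes. The groups did not overlap in CPM for 1 of the 10 genes, beside 13.5% of all tested genes, and 1 in 10 genes is close to both shares. The log2 fold changes (RIP1i minus DMSO) had a median of 0.061, beside 0.0025 over all tested genes, with 7 genes fitted higher and 3 lower. By DESeq2 and by limma-voom 0 of the 10 genes passed as well. In bulk RNA, fewer cells of a type and less RNA per cell cannot be told apart.

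Fos was the gene whose groups did not overlap. Fos (chromosome 12, 85473890 to 85477273, plus strand, GRCm38) encodes c-FOS, the classic immediate-early partner of JUN. It had 586, 569 and 557 counts in RIP1i replicates 1 to 3 and 682, 642 and 694 counts in DMSO replicates 1 to 3. After scaling these were 14.5, 13.5 and 13.4 CPM in RIP1i and 15.3, 16.0 and 15.3 CPM in DMSO. Every RIP1i library thus lay below every DMSO library, as for 6.18% of all tested genes. The log2 fold change was -0.17 ± 0.057 (SE), with a 95% interval from -0.30 to -0.035. With edgeR the unadjusted p was 0.020 and the adjusted p 0.777, and Fos ranked 327 of the 14857 genes by p. An exact 2-sided permutation test on log2 CPM gave p = 0.1, the smallest that 3 against 3 libraries allow. The library with the least stromal RNA, RIP1i replicate 2, was near the low end for Fos, and the one with the most, DMSO replicate 2, was the highest. Other libraries went the other way. DMSO replicate 3 had 97.4 stromal marker CPM and 15.3 CPM of Fos, and RIP1i replicate 3, the lowest for Fos, had 202 stromal marker CPM. The part of stromal cells was not tested. Without RIP1i replicate 2 and DMSO replicate 2 the log2 fold change was -0.15 (edgeR adjusted p = 0.617). These 2 libraries were chosen after seeing the data.

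Fosl2 (chromosome 5, 32135801 to 32157842, plus strand), the main FOS family gene here, had 148, 136 and 155 CPM in RIP1i and 154, 158 and 144 CPM in DMSO. The groups overlapped, with RIP1i replicate 2 lowest and DMSO replicate 2 highest. Its log2 fold change was -0.052 ± 0.059 (SE), with a 95% interval from -0.19 to 0.086 (edgeR adjusted p = 0.892). Without those 2 libraries, chosen after seeing the data, it was 0.015.

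**Figure D2:**
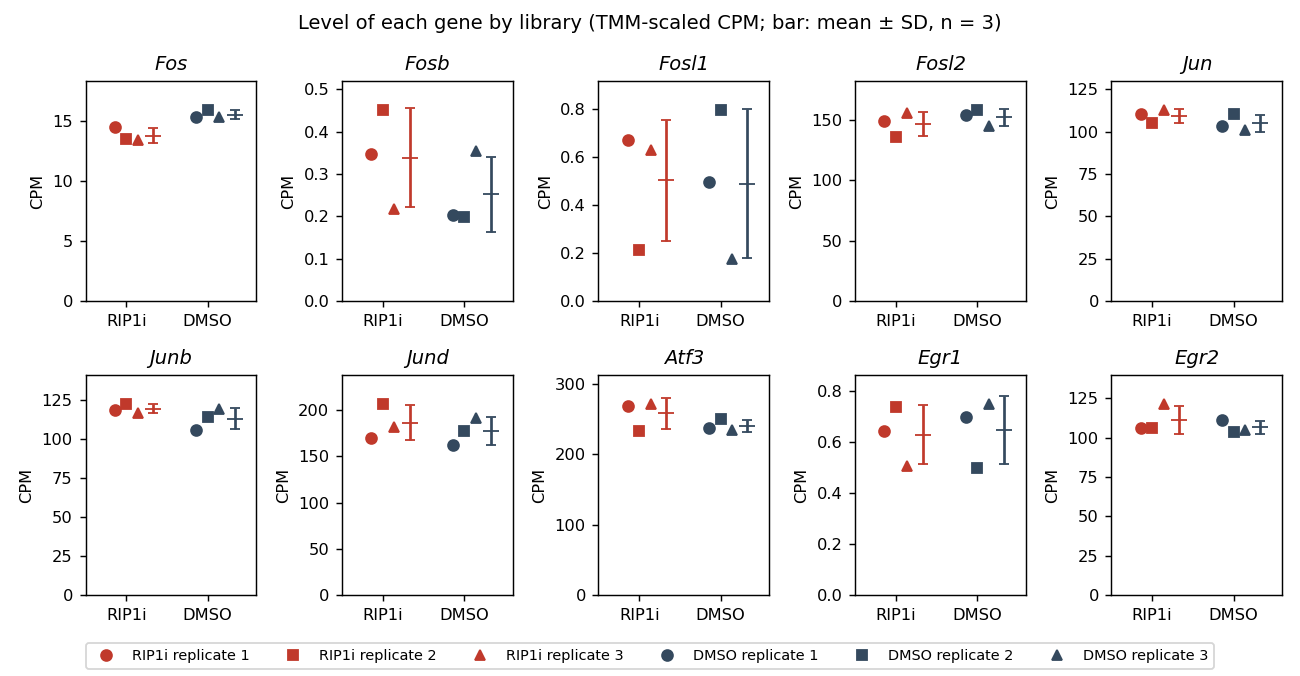
CPM of each of the 10 genes by library on axes that start at 0, RIP1i in red left of DMSO in dark blue, with symbols for the replicate number and bars for mean ± SD (n = 3). Fos is the gene in which the 3 RIP1i points (13.4 to 14.5 CPM) all lie below the 3 DMSO points (15.3 to 16.0 CPM).

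The JUN family genes overlapped between the groups. Jun (chromosome 4, 95049034 to 95052222, minus strand), a gene with 1 exon that encodes c-JUN, had 110, 105 and 113 CPM in RIP1i and 103, 110 and 101 CPM in DMSO. Its log2 fold change was 0.061 ± 0.049 (SE), with an interval from -0.052 to 0.17 (edgeR adjusted p = 0.851). Junb (chromosome 8, 84974484 to 84978718, minus strand), whose product can oppose c-JUN, had 119, 122 and 117 CPM in RIP1i and 105, 114 and 119 CPM in DMSO. In this gene DMSO replicate 3 lay among the RIP1i libraries and the other two DMSO libraries below them. Its log2 fold change was 0.080 ± 0.052 (SE), with an interval from -0.042 to 0.20 (edgeR adjusted p = 0.816), and it was 0.022 without DMSO replicate 1 and 0.12 without DMSO replicate 3.

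Jund (chromosome 8, 70698949 to 70700616, plus strand) had 170, 207 and 181 CPM in RIP1i and 162, 177 and 192 CPM in DMSO. Its highest libraries were RIP1i replicate 2 and DMSO replicate 3, 1 of each group. The log2 fold change was 0.072 ± 0.086 (SE), with an interval from -0.13 to 0.27 (edgeR adjusted p = 0.902), and -0.023 without RIP1i replicate 2. The counting strand is not given in the sources used here, and the annotation (GENCODE vM21) places an antisense gene across part of Jun (Junos, 283 to 411 counts a library) and of Jund (Gm11175, 42 to 57 counts). The end of Junb (4578 to 5393 counts a library) overlaps Prdx2 (6841 to 7363 counts) on the other strand by 351 bases. Reads from these overlaps cannot be assigned here.

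Atf3 (chromosome 1, 191170296 to 191218039, minus strand) had 269, 233 and 272 CPM in RIP1i and 237, 250 and 234 CPM in DMSO. RIP1i replicates 1 and 3 lay above all DMSO libraries, and RIP1i replicate 2 was the lowest library of the 6. The log2 fold change was 0.10 ± 0.065 (SE), with an interval from -0.047 to 0.25 (edgeR adjusted p = 0.811). Without the RIP1i and DMSO libraries numbered 2 it was 0.19 (edgeR adjusted p = 0.602). That choice was made after seeing the data and leaves out the lowest RIP1i and the highest DMSO library, so it had to widen the difference. Egr2 (chromosome 10, 67535475 to 67542188, plus strand) had 106, 106 and 122 CPM in RIP1i and 111, 104 and 105 CPM in DMSO. Here RIP1i replicate 3 alone stood above the rest. The log2 fold change was 0.061 ± 0.063 (SE), with an interval from -0.086 to 0.21 (edgeR adjusted p = 0.883), and -0.012 without that library.

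For these 7 well-counted genes the 95% intervals of the fold, RIP1i over DMSO, together ran from 0.811 (the lower bound of Fos) to 1.21 (the upper bound of Jund). The 3 weakly expressed genes allowed far larger differences. Egr1, an immediate-early gene of growth factor and stress signals, had 26, 31 and 21 counts in RIP1i and 31, 20 and 34 counts in DMSO. The groups overlapped fully, with a fold interval from 0.649 to 1.44 (log2 fold change -0.049, edgeR adjusted p = 0.979). Fosb (chromosome 7, 19302696 to 19310051, minus strand), induced together with Fos by many signals, had 14, 19 and 9 counts in RIP1i and 9, 8 and 16 counts in DMSO. Its fold interval ran from 0.719 to 2.48 (log2 fold change 0.42, edgeR adjusted p = 0.877), a wide range that includes no change. Without RIP1i replicate 2 the log2 fold change was 0.14, and without DMSO replicate 3 it was 0.74. Without the RIP1i and DMSO libraries numbered 2, chosen after seeing the data, it was 0.0029. Fosl1 (chromosome 19, 5447547 to 5455946, plus strand), which encodes FRA1, had 27, 9 and 26 counts in RIP1i and 22, 32 and 8 counts in DMSO. Its fold interval ran from 0.413 to 2.61 (log2 fold change 0.055, edgeR adjusted p = 0.990).

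**Figure D3:**
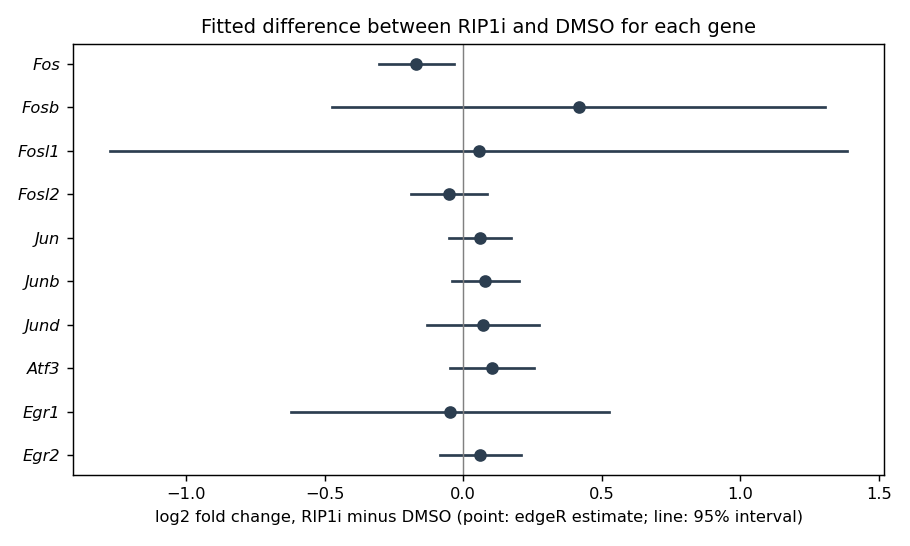
Log2 fold change (RIP1i minus DMSO) of each gene with its 95% interval from edgeR's quasi-likelihood fit. The interval of Fos, from -0.30 to -0.035, is the one that leaves out 0, and those of Fosb, Fosl1 and Egr1 are the widest.

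The spread between libraries differed among the genes more than the groups did. Fosl1 varied 4.50-fold between its highest library, DMSO replicate 2, and its lowest, DMSO replicate 3. Its coefficient of variation over the 6 libraries was 50.9%, where counting error alone gives 22.0%. For Egr1 the coefficient was 17.5% and counting error 19.2%, so its spread was no larger than counting gives, and for Fosb it was 35.3% against 28.3%. The 7 well-counted genes varied between 1.12-fold (Jun) and 1.28-fold (Jund) over the 6 libraries, with coefficients of 4.39% to 8.81%. Counting error alone gives 0.975% (Atf3) to 4.01% (Fos) for them, and each of the 7 varied by more than its own counting error.

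The libraries in which these genes were extreme recurred. RIP1i replicate 2 and DMSO replicate 3, the 2 libraries with the least stromal RNA, were the highest for Jund, Junb, Fosb and Egr1 and the lowest for Fosl1, Fosl2 and Atf3, though by small margins for Junb, Fosb, Egr1 and Atf3. Fosl1 stood at 0.669, 0.214 and 0.628 CPM in RIP1i replicates 1 to 3 and at 0.495, 0.796 and 0.177 CPM in DMSO replicates 1 to 3. Its highest library, DMSO replicate 2, was also the one with the most stromal RNA. Fosb stood at 0.347, 0.451 and 0.217 CPM in RIP1i and 0.202, 0.199 and 0.354 CPM in DMSO. These patterns run across both groups, were seen after the values were known, and rest on few counts for Fosl1, Fosb and Egr1 but not for Jund, Junb, Fosl2 and Atf3. The part of stromal or other cells in them was not tested. Fosl1 is also crossed on the other strand by Ccdc85b, with 261 to 325 counts a library.

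**Figure D4:**
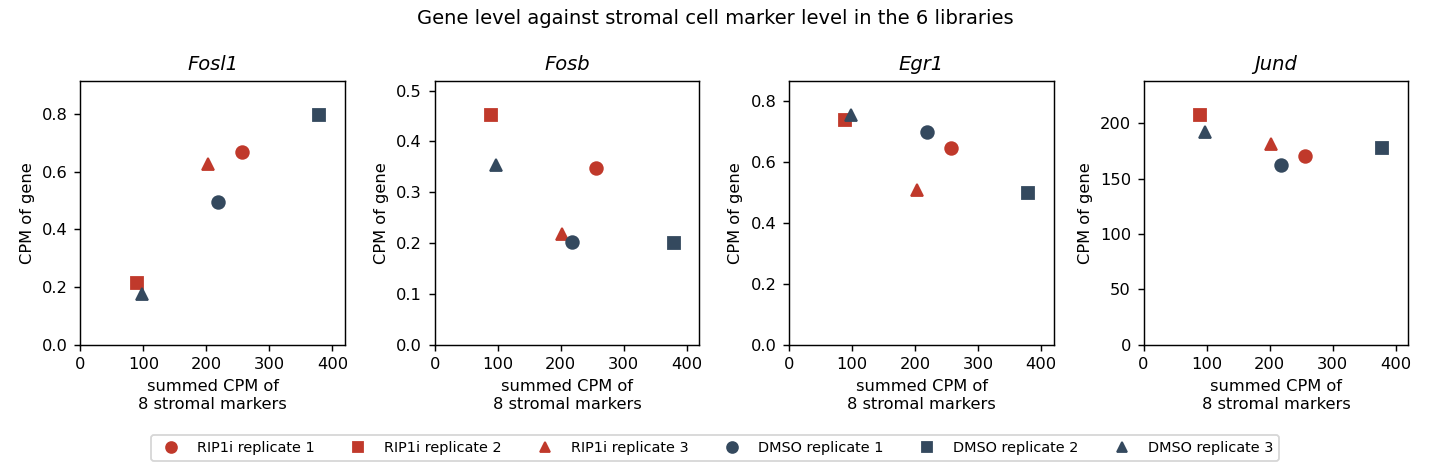
CPM of Fosl1, Fosb, Egr1 and Jund (axes from 0) against the summed CPM of 8 stromal cell markers, 1 point a library, RIP1i in red and DMSO in dark blue. The 2 libraries at the left, RIP1i replicate 2 at 89.2 and DMSO replicate 3 at 97.4 marker CPM, have the lowest Fosl1 and the highest Jund, Fosb and Egr1.

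By the mean of the 10 centred log2 CPM values in each library, the genes stood at 0.090, -0.022 and 0.018 in RIP1i and at -0.038, 0.020 and -0.068 in DMSO, with overlap. Each gene had the same weight in this mean, so the genes that varied most between libraries moved it most. These were Fosl1 (8 to 32 counts, coefficient of variation 50.9%) and Fosb (8 to 19 counts, 35.3%). Among the well-counted genes the largest coefficient was 8.81% (Jund). The 5 other genes whose log2 CPM followed this mean most closely over the 6 libraries were Zpr1 (r = 0.986, rho = 1), Acot9 (r = 0.979, rho = 0.943), Osbpl5 (r = 0.970, rho = 0.943), Madd (r = 0.967, rho = 0.943) and Dda1 (r = 0.967, rho = 1). Over 11003 genes compared, 52 had r over 0.9. With 6 points that share their libraries and this many genes compared, these values are a description only. The genes named may follow the few counts of Fosl1 and Fosb more than the well-counted genes, which was not tested.

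The surrounding pathway was read from lists of genes that partner, activate or restrain these factors, and none of their genes passed edgeR's test over all genes (0 of 73 tested of 74 listed, and likewise 0 by DESeq2 and by limma-voom). At an unadjusted p under 0.05 there were 2, Batf and Plk3, beside 6.21% of all tested genes. Of 11 other basic leucine zipper genes, 6 were fitted higher and 5 lower, with a median log2 fold change of 0.012. Batf, whose product pairs with JUN proteins in immune cells, was at 17.9 ± 1.22 CPM in RIP1i and 15.6 ± 1.09 CPM in DMSO (SD, n = 3). Its RIP1i libraries lay above all DMSO libraries, as for 7.36% of all tested genes, at a log2 fold change of 0.20 ± 0.075 (SE; edgeR adjusted p = 0.777). Jdp2, which encodes a JUN-binding repressor, had 0.13 ± 0.11, and Batf2 had -0.16 ± 0.15. Of the EGR relatives and corepressors, Egr4 had 0 counts in every library. The other 3 were fitted higher without passing, with Nab1 at 0.12 ± 0.076, Nab2 at 0.015 ± 0.042 and Egr3, at under 0.5 CPM in every library, at 0.54 ± 0.37. NAB proteins hold back transcription by EGR factors.

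Upstream, the 6 genes of serum response factor and its partners had a median log2 fold change of -0.017, with 2 fitted higher and 4 lower. Elk1, a ternary complex factor that MAP kinases phosphorylate, was at 19.9 ± 0.639 CPM in RIP1i and 18.8 ± 0.185 CPM in DMSO (SD, n = 3), and had 0.083 ± 0.049. Its RIP1i libraries all lay above the DMSO libraries, as for 7.36% of all tested genes. Mkl1, an actin-regulated coactivator of SRF, had -0.082 ± 0.049, and Elk4 had -0.032 ± 0.048. Of 11 MAP kinases and their kinases, 9 were fitted higher and 2 lower, all within 0.089 of 0 on the log2 scale. Among those with the smallest p-values were Map2k4, a kinase of JNK, at 0.089 ± 0.062, and Map2k7 at -0.055 ± 0.045. No group difference was thus detected in the RNA of the kinases that switch these factors on, and their activity was not measured.

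Of 12 MAP kinase phosphatases and feedback inhibitors, 6 were fitted higher and 6 lower, with a median of 0.0064. Spry1, a Sprouty inhibitor of receptor signalling, was at 2.24 ± 0.746 CPM in RIP1i and 1.55 ± 0.031 CPM in DMSO (SD, n = 3), and had 0.53 ± 0.24. Every RIP1i library was higher for Spry1 than every DMSO library, as for 7.36% of all tested genes. Spred1 had 0.17 ± 0.088, and Spry2 -0.17 ± 0.12. Of 20 other immediate-early genes, 11 were fitted higher and 9 lower, with a median of 0.0038. In 2 of them the groups did not overlap, beside 13.5% of all tested genes. Plk3, a stress-responsive kinase gene, was at 26.0 ± 0.985 CPM in RIP1i and 29.0 ± 0.980 CPM in DMSO (SD, n = 3), at a log2 fold change of -0.16 ± 0.050 (SE; edgeR adjusted p = 0.777). Nr4a1, which encodes the nuclear receptor NUR77, was at 0.790 ± 0.139 CPM in RIP1i and 0.589 ± 0.084 CPM in DMSO (SD, n = 3), at 0.42 ± 0.22. Zfp36l1, an mRNA decay factor gene, had -0.095 ± 0.056.

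Of 10 genes known as targets of AP-1 or EGR factors, 6 were fitted higher and 4 lower, with a median of 0.060 and overlap between the groups for all 10. Their log2 fold changes ran from -0.34 to 0.16. Plaur, the urokinase receptor gene, was at 493 ± 47.5 CPM in RIP1i and 447 ± 33.3 CPM in DMSO (SD, n = 3), at 0.14 ± 0.081. Cd9, a tetraspanin gene, had -0.062 ± 0.047, and Cd44, the hyaluronan receptor gene, 0.10 ± 0.083.

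**Figure D5:**
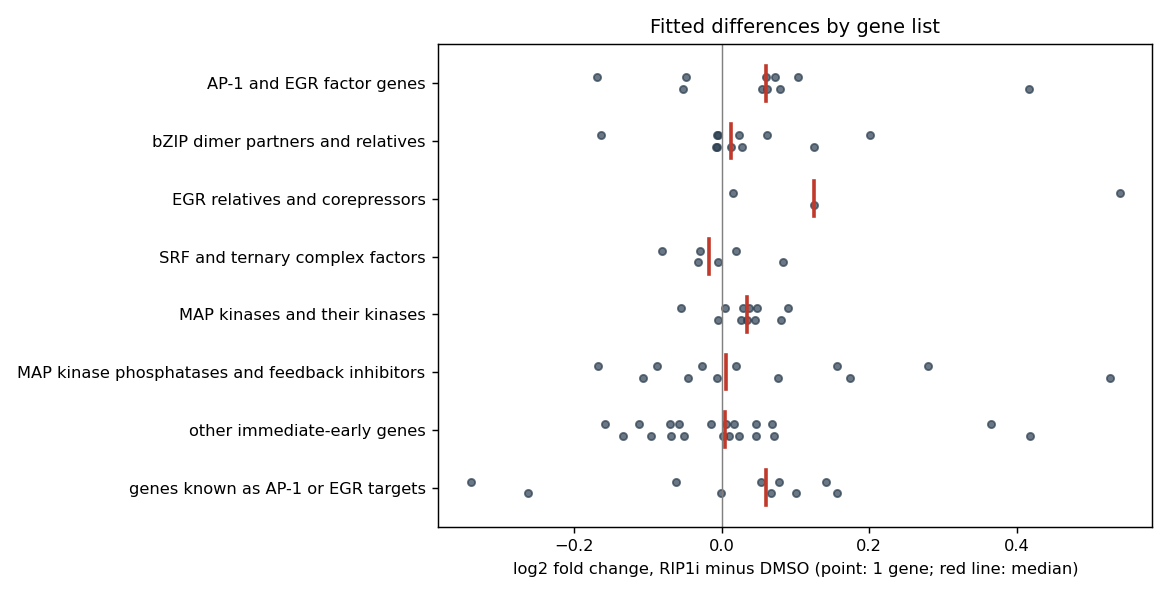
Log2 fold changes (RIP1i minus DMSO) of the tested genes of each list, 1 point a gene, with the list median in red and the AP-1 and EGR factor genes in the top row. Most points lie within 0.2 of 0, and the points above 0.3 belong to genes at low levels, such as Egr3, Spry1, Nr4a1 and Fosb. The lowest point, at -0.34, is an AP-1 or EGR target gene at a higher level, 11.2 ± 3.15 CPM in RIP1i and 14.3 ± 8.11 CPM in DMSO.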

How the data were processed

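The authors deposited raw read counts per gene and FPKM values for the same genes in 6 libraries. The submitters' processing notes list STAR 2.5.3a, Subread 1.4.6-p3 with featureCounts, CASAVA 1.8.4 and DESeq2 (version 1.14.0), and the build mm10. Roles, annotation and strand setting are not given there. Counts were filtered with filterByExpr (minimum count 10, minimum total 15), which left 14857 genes, and scaled by TMM (factors 0.978 to 1.01). RIP1i was tested against DMSO, with no other term and 2-sided, by the quasi-likelihood test of edgeR (4.0.16, R 4.3.3). SE came from the F statistic. The fit was also run on simulated counts with planted changes larger than those fitted for the 10 genes, so that run does not bear on their differences. Levels between genes are deposited FPKM. Alternatives were 2 scalings, 2 filters, DESeq2 1.42.0, voom and trend fits in limma 3.58.1, a replicate block and left-out libraries. Gene positions are from GENCODE vM21 (GRCm38, the same sequence as mm10). The members and lists were chosen with earlier results of these data known. Named genes are the 10 members, up to 3 of each pathway list with the smallest p, and the 5 most alike in pattern; 1 gene that the rule takes is not reported here.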

Additional observations from a re-analysis of the deposited data

How the results depend on the processing

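In each of 17 alternatives 0 of the 10 genes passed (in 3 of them Fosb, Fosl1 and Egr1 fell under the filter), and the median log2 fold change lay between 0.030 and 0.073. Over all genes, DESeq2 called 2 and limma-trend on log2(FPKM + 1) without a filter called 4, against 0 by edgeR. Fos stayed between -0.21 and -0.15 in all 17. The sign turned for Fosl1 without RIP1i replicate 1 (-0.21), RIP1i replicate 3 (-0.14) or DMSO replicate 3 (-0.36), against 0.57 without DMSO replicate 2, for Jund without RIP1i replicate 2 (-0.023, against up to 0.13 without DMSO replicate 3), for Egr1 without RIP1i replicate 3 (0.081) or DMSO replicate 3 (0.066), and for Egr2 without RIP1i replicate 3 (-0.012, against up to 0.084 without RIP1i replicate 2). Without the RIP1i and DMSO libraries numbered 2, a choice made after seeing the data, it turned for Fosl2 (0.015) and Jund (-0.024), and Fosl1 was at 0.94. The cause was not tested. With the replicate number as a block, 0 genes passed, and the same-numbered libraries deviated with r of 0.0058, -0.53 and -0.48 over all genes. The labels state no pairing, and with 3 libraries a group these values cannot show whether the numbers pair the libraries. Fosb, Fosl1 and Egr1 had 8 to 34 counts, and for Fosl1 the spread between libraries was larger than counting error.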
